A study of Rattus norvegicus with 10 samples.

Results

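The 6 miRNAs examined here were rno-miR-21-5p, rno-miR-21-3p, rno-miR-199a-5p, rno-miR-199a-3p, rno-miR-214-3p and rno-miR-214-5p, which are the arms of 3 precursors linked to cardiac fibroblasts and to remodelling of the ventricle. They were chosen by name from the 761 rat miRNA probes of the array, and each had 1 spot per array. The animals were male Wistar rats of 250 to 350 g, and RNA was taken from the left ventricle. Rats of the Control group received saline (5 arrays, 1 per animal), and rats of the DEX group received dexmedetomidine, an alpha2 adrenergic receptor agonist used as a sedative, for 30 min (5 arrays, 1 per animal). In both groups a short saline washout followed before the tissue was taken, and no ischemia was applied. The question was whether the members of these 3 precursors differ in abundance in the heart just after the infusion.

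A miRNA precursor folds into a hairpin, and either arm of the hairpin can be loaded into the silencing complex, where bases 2 to 8 of the arm (the seed) pair with target mRNAs. miR-21 is raised in fibroblasts of the stressed heart, where its best known targets include Spry1, an inhibitor of ERK signalling, and Pdcd4, an inhibitor of translation. miR-199a and miR-214 are cut from one long transcript made from the strand opposite to Dnm3, and this transcript is active in mesenchymal cells. Known targets are Hif1a and Sirt1 for miR-199a-5p and Slc8a1, the cardiac sodium-calcium exchanger, for miR-214-3p. The array measured miRNAs only, so levels of these targets were not analysed here.

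The mature sequences are shown from 5′ to 3′ with the seed in capitals, because the seed decides which mRNAs an arm can pair with and shows that the 6 arms do not duplicate each other. They were taken from RefSeq (GRCr8).
rno-miR-21-5p: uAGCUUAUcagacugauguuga
rno-miR-21-3p: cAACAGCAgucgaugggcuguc
rno-miR-199a-5p: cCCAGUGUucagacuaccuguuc
rno-miR-199a-3p: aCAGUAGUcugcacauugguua
rno-miR-214-3p: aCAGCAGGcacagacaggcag
rno-miR-214-5p: aGAGUUGUcaugugucu

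The 6 arms carried 6 different seeds. A RefSeq mature sequence was found by name for 685 of the 761 miRNAs on the chip, and among these no other miRNA shared a seed with any of the 6 arms. The rest were not compared. They include rno-miR-761, known as a member of the seed family of miR-214, which had a log2 difference between DEX and Control of -0.22 ± 0.24 (SE, limma adjusted p 0.905) with a 95% interval from -0.74 to 0.30. The nearest resemblance was between rno-miR-199a-3p and rno-miR-214-3p, whose first 8 bases were the same at 6 positions. With positions counted from the 5′ end, the changes from rno-miR-199a-3p to rno-miR-214-3p were U5C and U8G.

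The hairpins of Mir21 and Mir214 are shown with both annotated mature sequences in capitals, because detection differed within each hairpin. In Mir21 these span bases 18 to 39 and 56 to 77. In Mir214 they span bases 12 to 28 (rno-miR-214-5p, 17 bases) and 69 to 89, with a longer unmarked stretch between them. Whether rno-miR-214-5p as annotated is the strand that pairs with rno-miR-214-3p was not tested.
Mir21: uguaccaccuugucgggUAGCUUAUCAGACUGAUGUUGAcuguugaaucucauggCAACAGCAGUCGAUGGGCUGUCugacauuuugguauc
Mir214: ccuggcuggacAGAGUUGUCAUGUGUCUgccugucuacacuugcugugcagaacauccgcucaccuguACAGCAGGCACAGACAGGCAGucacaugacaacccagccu

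In the GRCr8 annotation Mir21 lies at chr10:71902600-71902691 on the minus strand, 531 bases past the end of the annotated span of Vmp1, a gene of the same strand. Mir199a2 (chr13:77116225-77116334) and Mir214 (chr13:77121645-77121752) lie 5.31 kb apart on the plus strand, both inside the span of Dnm3, which is read from the minus strand. The table used gives gene spans only, so exons and introns were not assigned. The annotated span of Mir3120 overlaps that of Mir214. Its product rno-miR-3120 (MIMAT0017900) was detected on 1 of 5 Control arrays and 1 of 5 DEX arrays, with a spot at most 8.97 intensity units over the blank spots.

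Values are normalized signals in arbitrary units: the spot intensity minus the mean of blank spots, scaled so that the median of the detected miRNAs of each array was 25. The number of arrays limits the precision, and the arrays had between 483 and 533 detected miRNAs each. Control 1 to Control 4 were on slide 1, Control 5 and DEX 1 to DEX 3 on slide 2, and DEX 4 and DEX 5 on slide 3, so slide and group cannot be told apart except on slide 2. DEX 1 was the dimmest array before scaling, with a median of 17.3 over blank against 35.4 to 53.5 on the other arrays. The 5 heart muscle miRNAs (the miR-1, miR-133, miR-208a and miR-499 families) were detected on all 10 arrays. Of 3 miRNAs of liver or neurons, rno-miR-122-5p and rno-miR-124-3p were detected on 1 array each and rno-miR-9a-5p, with a Control mean of 13.0 ± 4.44 and a DEX mean of 14.03 ± 4.26 (SD, n = 5 for both), on all 10. No probe marks fibroblasts alone, so which cells made the 6 arms could not be checked. In this bulk tissue, fewer cells of a type and less RNA per cell cannot be told apart.

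Of the 6 arms, 4 were detected on all 10 arrays and were tested: rno-miR-21-5p, both arms of miR-199a, and rno-miR-214-3p. None of these 4 differed between the DEX and Control groups beyond the spread between replicates. rno-miR-21-5p stood 1.29-fold higher in DEX, the arms of miR-199a 1.12-fold and 1.13-fold higher, and rno-miR-214-3p at 0.953 of its Control level, each with an interval that included no change. Of the rest, rno-miR-21-3p was detected on 0 of 10 arrays, and rno-miR-214-5p on 4 of 10.

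rno-miR-21-5p (MIMAT0000790) gave the strongest spots of the set over blank, between 720 and 2619 intensity units. Its normalized signal was 959, 761, 496, 852 and 893 on Control 1 to Control 5. It was 1043, 995, 970, 649 and 1518 on DEX 1 to DEX 5. DEX 5 was the highest array and Control 3 the lowest, and 4 of 5 DEX arrays exceeded every Control array while DEX 4 lay among the lowest, so the groups overlapped. The mean was 792 ± 181 (SD, n = 5) in Control and 1035 ± 312 (SD, n = 5) in DEX. The log2 difference (DEX minus Control) was 0.37 ± 0.23 (SE, limma adjusted p 0.905), with a 95% interval from -0.14 to 0.88, or 0.910-fold to 1.83-fold. A two-sided exact permutation test of the log2 signal gave p = 0.206, or 0.897 after adjustment over all tested miRNAs. The smallest p this test can give is 0.00794, and even miRNAs whose groups did not overlap had 0.897 after adjustment. The adjusted exact p therefore says little about any arm, here or below. Within slide 2, Control 5 had 893 and the 3 DEX arrays 970 to 1043, a log2 difference of 0.17.

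The arms of miR-199a are both stable products, and both were measured. rno-miR-199a-5p (MIMAT0000872) had, from Control 1 to Control 5, normalized signals of 233, 225, 153, 258 and 261. From DEX 1 to DEX 5 it had 254, 276, 232, 213.9 and 277. Control 3 was again the lowest array, and the other 9 arrays lay between 213.9 and 277, with the groups intermixed. The mean was 226 ± 43.5 (SD, n = 5) in Control and 250 ± 27.4 (SD, n = 5) in DEX. The log2 difference was 0.17 ± 0.17 (SE, limma adjusted p 0.905), with a 95% interval from -0.20 to 0.53, and the exact permutation test gave p = 0.365, or 0.897 adjusted over all tested miRNAs. Without Control 3 the log2 difference was 0.032.

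rno-miR-199a-3p (MIMAT0004738) measured 391, 393, 252, 377 and 521 in the Control arrays in order of their number. In the DEX arrays, in the same order, it measured 515, 442, 384, 317 and 501. Its highest array was Control 5 and its lowest Control 3, so both extremes belonged to the Control group. The mean was 387 ± 95.04 (SD, n = 5) in Control and 432 ± 82.6 (SD, n = 5) in DEX. The log2 difference was 0.17 ± 0.20 (SE, limma adjusted p 0.905), with a 95% interval from -0.26 to 0.61, and the exact permutation test gave p = 0.444, or 0.897 adjusted over all tested miRNAs. Without Control 3 it was 0.028. Within slide 2 the 3 DEX arrays lay below Control 5 in this arm, with a log2 difference of -0.23, and the 5p arm stood at -0.043 there.

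rno-miR-214-3p (MIMAT0000885), from the same transcript as Mir199a2, had signals of 89.0, 103, 92.2, 88.4 and 96.5 in the Control arrays, numbered 1 to 5. The DEX arrays, numbered likewise, had 92.7, 91.8, 86.4, 70.7 and 109. Both the highest and the lowest array belonged to the DEX group and to slide 3. The mean was 93.8 ± 6.01 (SD, n = 5) in Control and 90.1 ± 13.7 (SD, n = 5) in DEX. The log2 difference was -0.07 ± 0.14 (SE, limma adjusted p 0.916), with a 95% interval from -0.37 to 0.23, and the exact permutation test gave p = 0.571, or 0.912 adjusted over all tested miRNAs. Within slide 2 the log2 difference was -0.10. Control 3, low for rno-miR-21-5p and both arms of miR-199a, was in the middle of the Control group for rno-miR-214-3p.

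**Figure D1:**
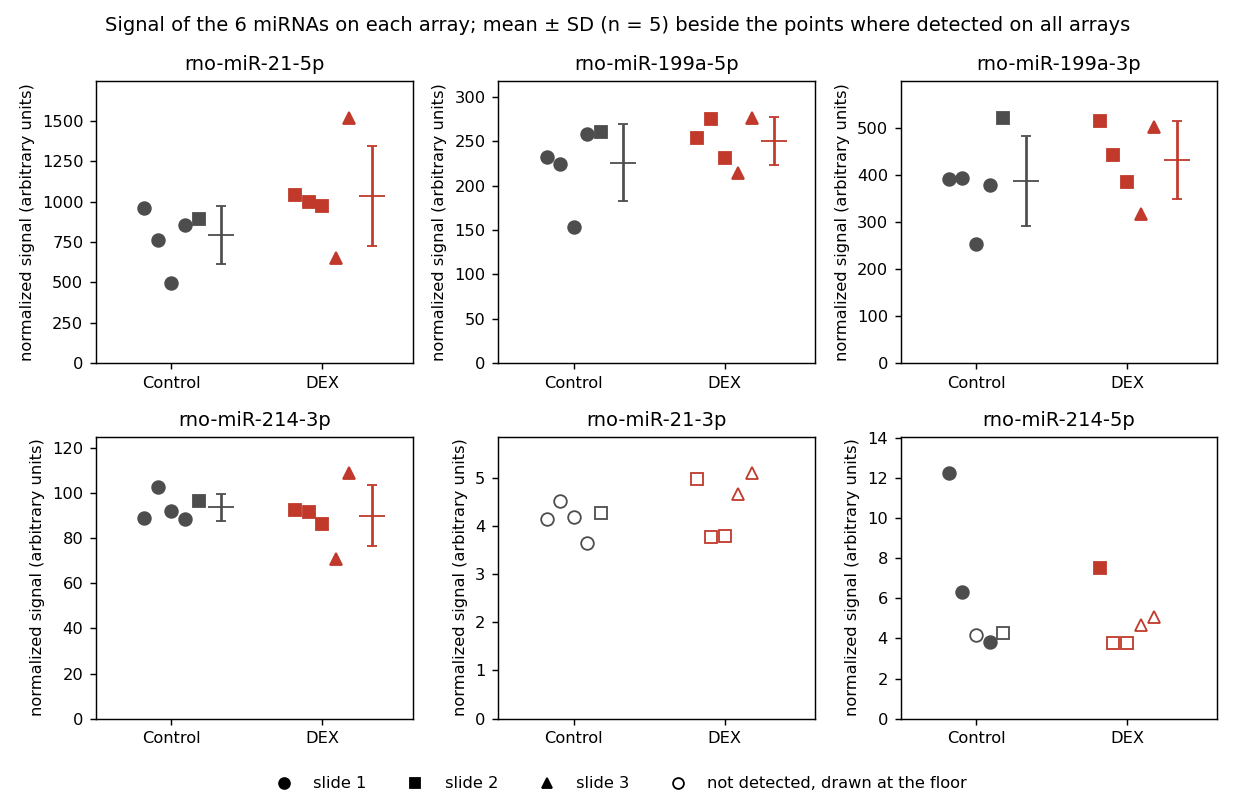
Normalized signal (arbitrary units, vertical axis starting at 0) of the 6 arms on each Control and DEX array, with filled symbols for detected and open symbols for undetected values drawn at the floor, symbol shape for the slide, and bars for the mean ± SD of 5 arrays. The groups overlap in all of the 4 arms that were detected throughout, and Control 3 is lowest in rno-miR-21-5p (496), rno-miR-199a-5p (153) and rno-miR-199a-3p (252).

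The passenger arm rno-miR-21-3p (MIMAT0004711) was detected on 0 of 5 Control arrays and 0 of 5 DEX arrays. Its spot lay between -6.12 and 7.95 intensity units from the blank mean, that is between -1.79 and 1.82 blank SDs, while a spot counted as detected at about 2 SDs. rno-miR-214-5p (MIMAT0017159) was detected on 3 of 5 Control arrays (Control 1, Control 2 and Control 4) and on 1 of 5 DEX arrays (DEX 1), a difference that Fisher's exact test did not separate (two-sided, p = 0.524). Its normalized signal on those arrays was 12.2, 6.31, 3.80 and 7.50, where the floor (the lowest detected value of an array) was between 3.64 and 5.09. It was not tested with limma, which was run on miRNAs detected on at least 5 arrays, and no fold is given for either arm. Spots that carry no probe had a higher median over blank on the slide 3 arrays (37.7 on DEX 4, 28.8 on DEX 5) than on Control arrays (6.62 to 10.2), while rno-miR-214-5p stood at 2.23 and 4.42 over blank on these arrays.

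Across the array, 503 miRNAs were detected on at least 5 of the 10 arrays and tested with limma, and 0 passed an adjusted p of 0.05, which is 0% (smallest adjusted p 0.115). Before adjustment 15 had a p under 0.05, or 2.98% of those tested, and 0 of the 4 tested arms were among them. The groups did not overlap for 0 of the 4 arms and for 0.596% of all tested miRNAs. A difference of at least 1.5-fold was reached by 0 of the 4 arms and by 3.58% of all tested miRNAs. Over all 503 miRNAs the log2 differences had a median of 0.044. Among the 168 brightest, to which all 4 arms belonged, the median was 0.11 and 139 stood above 0, so most bright probes lay on the same side as rno-miR-21-5p and the arms of miR-199a. Without scaling between arrays 18 of these 168 stood above 0, and with slide as a fixed term 19. The slide term compares Control 5 alone with DEX 1 to DEX 3.

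**Figure D2:**
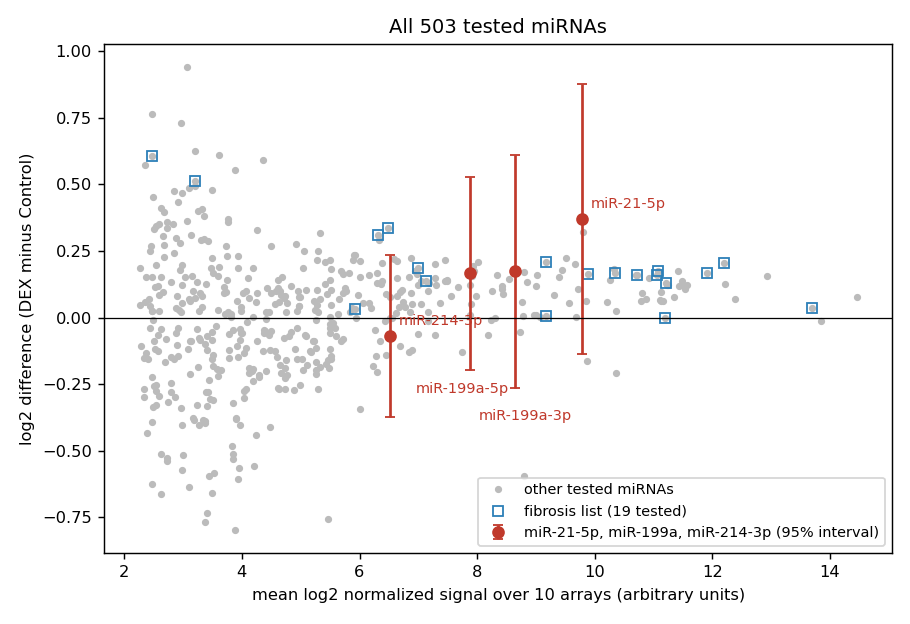
Log2 difference (DEX minus Control, vertical axis) against mean log2 normalized signal over the 10 arrays (horizontal axis) for the 503 tested miRNAs, with rno-miR-21-5p, both arms of miR-199a and rno-miR-214-3p in red with 95% intervals and the other fibrosis-linked miRNAs as blue squares. All 4 red intervals cross 0, from 0.37 for rno-miR-21-5p to -0.07 for rno-miR-214-3p.

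The 4 arms differed in how much they varied among arrays, where spread of animals, arrays and slides cannot be told apart. The SD of the log2 signal around the group means was 0.41 for rno-miR-21-5p, 0.33 for rno-miR-199a-3p, 0.25 for rno-miR-199a-5p and 0.17 for rno-miR-214-3p. For comparison, the median over the 168 brightest tested miRNAs was 0.22. Of these, 97.0% had a smaller SD than rno-miR-21-5p, and 11.9% had a smaller SD than rno-miR-214-3p. The highest array was 3.06 times the lowest for rno-miR-21-5p and 1.54 times the lowest for rno-miR-214-3p. These spreads are descriptions, and no test of their difference was made. They also depend on the scaling. In the order above, the limma SE of the log2 difference was 0.233, 0.201, 0.167 and 0.140 as reported. With scaling on heart muscle miRNAs it was 0.189, 0.128, 0.129 and 0.118, so the SEs of the miR-199a arms were nearly the same. With quantile scaling it was 0.182, 0.119, 0.108 and 0.080. The intervals rest on the limma SEs, in which the spread of each arm is drawn toward that of all tested miRNAs. Changes in rno-miR-21-5p of up to 1.83-fold, but in rno-miR-214-3p of up to 1.18-fold or down to 0.772-fold, lay within the 95% intervals.

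The processing moved these differences. rno-miR-21-5p was higher in DEX under every one of the 26 alternatives, and its adjusted p was never below 0.615. Its log2 difference ranged from 0.16 without scaling between arrays to 0.88 with the normexp background correction. Choices that change only the filter, the undetected values or the SE could not move this difference, which stayed at 0.37. The 10 settings with 1 array left out share most of their arrays. The 26 alternatives are therefore not separate checks of the direction. With Control 3 left out the log2 difference of rno-miR-21-5p was 0.21, and without DEX 5 it was 0.22. Without DEX 4 it was 0.52, with a 95% interval from 0.046 to 1.004 and a limma adjusted p of 0.895. Both arms of miR-199a changed sign without scaling between arrays (-0.040 for the 5p arm and -0.032 for the 3p arm), with slide as a fixed term (-0.043 and -0.23) and with normexp on the background column of the scanner files (-0.082 and -0.40). That column held between 38.8% and 118% of the spot intensity for rno-miR-199a-3p. For rno-miR-21-5p, where normexp gave 0.88, it held between 61.0% and 104%. Leaving out scaling also moved the median of all tested miRNAs to -0.16. Relative to the median of the same setting, rno-miR-21-5p stood at 0.33, rno-miR-199a-5p at 0.12 and rno-miR-214-3p at -0.11, each with and without scaling. With slide as a fixed term the comparison rests on slide 2, the only slide with both groups. It sets Control 5 alone against DEX 1 to DEX 3, so its values are those given above within slide 2. The median of all tested miRNAs was then -0.19. Relative to it rno-miR-21-5p stood at 0.35, rno-miR-199a-5p at 0.14, rno-miR-199a-3p at -0.043 and rno-miR-214-3p at 0.092.

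**Figure D3:**
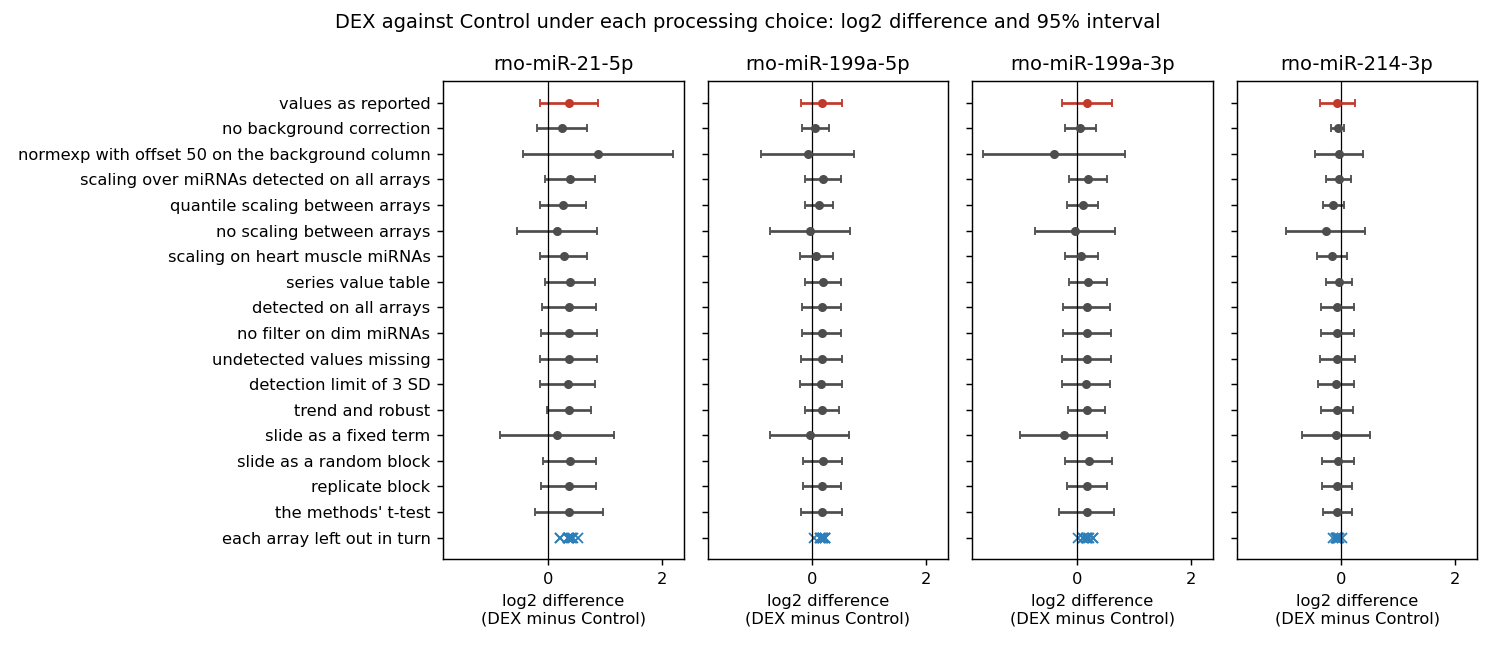
Log2 difference between DEX and Control (horizontal axis, 0 marked by a line) of rno-miR-21-5p, both arms of miR-199a and rno-miR-214-3p under each processing choice (vertical axis), with 95% intervals, the reported values in red, and crosses, drawn without intervals, for the values with each array left out in turn. Every interval drawn includes 0, and rno-miR-21-5p stays to the right of 0 throughout, between 0.16 without scaling and 0.88 with normexp.

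Both arms of miR-199a are annotated to the Mir199a2 hairpin, and their ratio on an array does not depend on the scaling factor of that array. Whether another locus adds to their signal was not tested. The log2 ratio of the 3p to the 5p arm was 0.75, 0.80, 0.72, 0.55 and 0.997 in Control arrays 1 to 5. In DEX arrays 1 to 5 it was 1.02, 0.68, 0.73, 0.57 and 0.86. The groups covered almost the same range, with the highest ratios on Control 5 and DEX 1, both on slide 2. The mean was 0.76 ± 0.16 (SD, n = 5) in Control and 0.77 ± 0.17 (SD, n = 5) in DEX, which differed by 0.0072 ± 0.14 (SE, limma adjusted p 0.992) with a 95% interval from -0.30 to 0.32. Among 134 precursors with both arms tested, 0 passed an adjusted p of 0.05 (0%, smallest adjusted p 0.220), and 8 had an unadjusted p under 0.05. The SD of the ratio around the group means was 0.17 for miR-199a, against a median of 0.41 over all 134 precursors, and 9.70% of precursors had a smaller SD. The value of the ratio itself is not a ratio of molecules, since the probes of the arms may differ in affinity. For Mir21 and Mir214 no such contrast could be made, because rno-miR-21-3p and rno-miR-214-5p were not detected on enough arrays.

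The 4 arms were also compared with each other across the 10 arrays, together with all other miRNAs that had a value on every array (1994 pairs tested, of which 129, or 6.47%, passed an adjusted p of 0.05 for Pearson's r by permutation, all with a positive r). The arms of miR-199a went together with r = 0.884 (permutation test, p = 0.00106, adjusted p = 0.0274) and Spearman's rho = 0.721 (permutation test, p = 0.0228, adjusted p = 0.184). rno-miR-21-5p, from another chromosome, went with rno-miR-199a-5p at r = 0.854 (permutation test, p = 0.00104, adjusted p = 0.0274) and rho = 0.770 (p = 0.0126 by permutation, adjusted p = 0.140). It went with rno-miR-199a-3p at r = 0.843 (permutation test, p = 0.00266, adjusted p = 0.0455) and rho = 0.697 (p = 0.0308 by permutation, adjusted p = 0.212). rno-miR-214-3p, which shares its transcript with Mir199a2, had r = 0.274 with the 5p arm of miR-199a (permutation test, p = 0.372, adjusted p = 0.649, rho = 0.394, p = 0.262, adjusted p = 0.530). With the 3p arm it had r = 0.494 (permutation test, p = 0.144, adjusted p = 0.399, rho = 0.661, p = 0.0443, adjusted p = 0.231). With rno-miR-21-5p it had r = 0.482 (permutation test, p = 0.153, adjusted p = 0.411, rho = 0.309, p = 0.387, adjusted p = 0.643).

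The median r over all pairs of miRNAs was 0.232, so a positive r between 2 probes was common. Of all pairs, 2.98% had an r at or above 0.843, the lowest of the 3 higher correlations. Each array was scaled by its own factor, and the part of this step in the median r was not tested. The 3 higher correlations were similar within groups: with the group means removed r was 0.874, 0.833 and 0.837, and with the slide means removed 0.854, 0.820 and 0.838. Slides held only 2 to 4 arrays, too few for a test. On slide 1, which holds Control 3, the same 3 values were 0.943, 0.933 and 0.939, while on the 4 arrays of slide 2 they were 0.524, -0.013 and -0.11, so the relation of rno-miR-21-5p with miR-199a was not seen within slide 2. The 3 higher correlations leaned on Control 3, since leaving out this array alone lowered each r. Leaving out DEX 5 alone did not have this effect. The r between the arms of miR-199a was then 0.8695. That of rno-miR-21-5p rose to 0.889 with rno-miR-199a-5p and to 0.864 with rno-miR-199a-3p. Without Control 3 and DEX 5, the arrays farthest from the median, r was 0.714 between the arms of miR-199a, 0.664 between rno-miR-21-5p and rno-miR-199a-5p, and 0.690 between rno-miR-21-5p and rno-miR-199a-3p. Without Control 3 alone none of the 6 pairs passed an adjusted p of 0.05 (smallest 0.228), and none did without Control 2, DEX 4 or DEX 5. The 3 values of r were 0.886, 0.854 and 0.850 without Control 2, and 0.890, 0.856 and 0.820 without DEX 4. For Control 2, DEX 4 and DEX 5 the threshold was thus missed with little change in r. Leaving out DEX 1 left 1 pair. For rno-miR-214-3p with rno-miR-199a-3p, r was 0.747 without Control 3 and Control 5, with rno-miR-199a-5p it was 0.459 without Control 3 and DEX 5, and for rno-miR-21-5p with rno-miR-214-3p it was 0.481 without Control 3 and DEX 5.

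**Figure D4:**
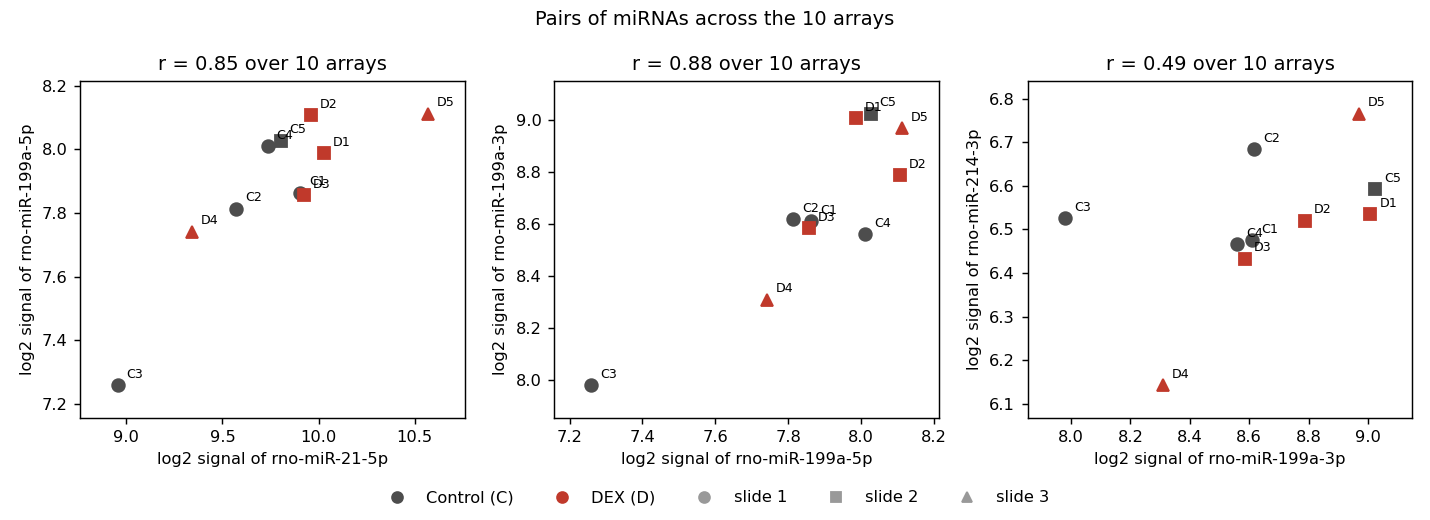
Log2 normalized signal of one miRNA against another on the 10 arrays (both axes in log2 arbitrary units) for rno-miR-21-5p with rno-miR-199a-5p, the arms of miR-199a, and rno-miR-199a-3p with rno-miR-214-3p, with colour for the group and shape for the slide. Control 3 lies far from the rest where rno-miR-214-3p is not plotted (r = 0.854 and 0.884), and where rno-miR-214-3p is plotted (r = 0.494) DEX 4 is its lowest array.

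The correlations of rno-miR-214-3p with the other arms changed with the scaling. Its r with rno-miR-199a-3p was 0.494 as reported and 0.811 without scaling between arrays. The same r was -0.086 with scaling over the miRNAs detected on all arrays, -0.43 with quantile scaling and -0.23 with scaling on the heart muscle miRNAs. The r between the arms of miR-199a ranged over all alternatives from 0.483 with quantile scaling to 0.954 without scaling. That between rno-miR-21-5p and rno-miR-199a-5p ranged from 0.182 with normexp to 0.889 without DEX 5, and that between rno-miR-21-5p and rno-miR-199a-3p from 0.303 with normexp to 0.913 without Control 5. The adjusted threshold was passed by 0 of the 6 pairs without background correction, with normexp, with scaling over the miRNAs detected on all arrays, with quantile scaling, with scaling on the heart muscle miRNAs and with the values of the deposited table.

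**Figure D5:**
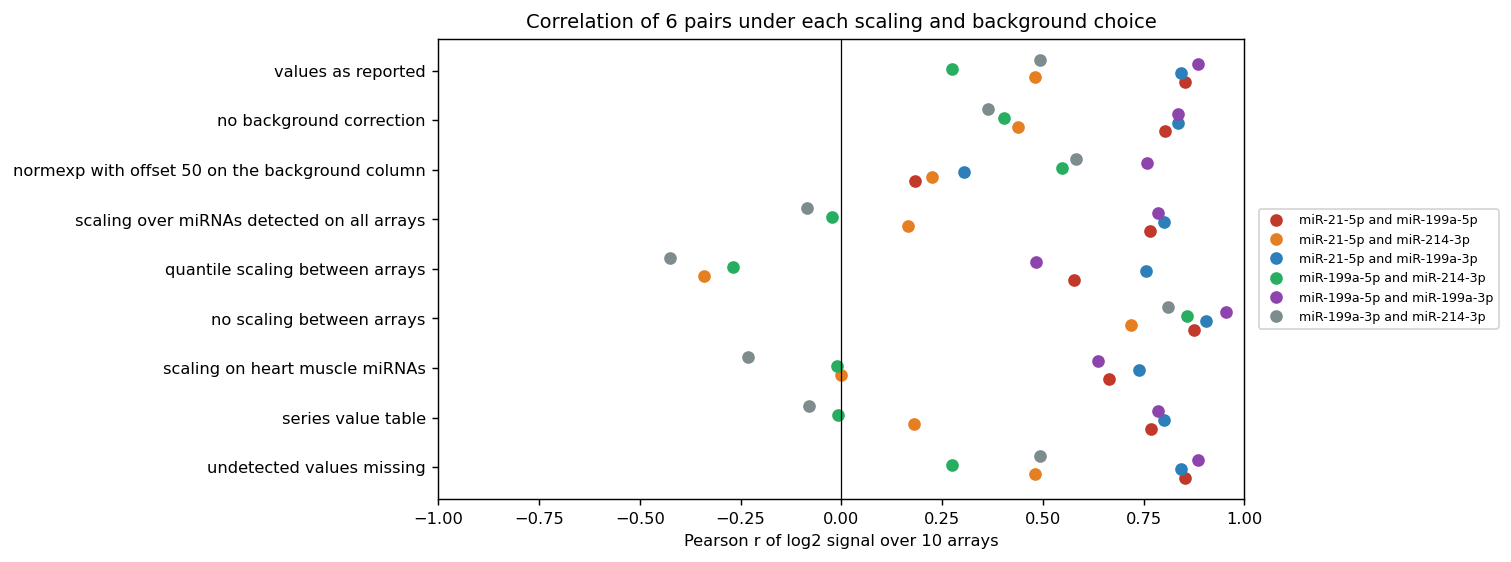
Pearson r over the 10 arrays (horizontal axis, 0 marked by a line) for the 6 pairs among rno-miR-21-5p, both arms of miR-199a and rno-miR-214-3p, under each background, scaling and value choice (vertical axis). The 3 pairs without rno-miR-214-3p stay above 0 throughout, and the pairs with it change sign under quantile scaling.

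The miRNAs whose signal followed each arm most closely over the 10 arrays were taken from all others measured. For rno-miR-21-5p they were rno-miR-17-5p of the miR-17-92 cluster (r = 0.947, permutation adjusted p = 0.0142), rno-miR-29a-3p, which represses collagen mRNAs (r = 0.940, adjusted p = 0.00798), and rno-miR-27b-3p (r = 0.936, adjusted p = 0.0154). For rno-miR-199a-5p they were rno-miR-433-5p (r = 0.937, permutation adjusted p = 0.0283), rno-miR-27b-3p (r = 0.898, adjusted p = 0.0305) and rno-miR-27a-3p (r = 0.893, adjusted p = 0.0282). For rno-miR-199a-3p they were rno-miR-19b-3p (r = 0.977, permutation adjusted p = 0.00855), rno-miR-130a-3p (r = 0.962, adjusted p = 0.00798) and rno-let-7d-5p (r = 0.954, adjusted p = 0.00798). For rno-miR-214-3p they were rno-miR-664-1-5p (r = 0.950, permutation adjusted p = 0.0125), rno-miR-615 (r = 0.9002, adjusted p = 0.0154) and rno-miR-3473 (r = 0.897, adjusted p = 0.0440). Without the 2 farthest arrays the 3 values of r, in the order given, were 0.801, 0.899 and 0.769 for rno-miR-21-5p and 0.816, 0.633 and 0.624 for rno-miR-199a-5p. They were 0.969, 0.934 and 0.944 for rno-miR-199a-3p and 0.831, 0.804 and 0.452 for rno-miR-214-3p. By Spearman's rho, the partners rno-miR-27b-3p and rno-miR-27a-3p of rno-miR-199a-5p (permutation adjusted p = 0.108 and 0.0952) and all 3 partners of rno-miR-214-3p (permutation adjusted p from 0.0745 to 0.227) did not pass the threshold. Among the 3 named for each arm, rno-miR-27b-3p appeared for both rno-miR-21-5p and rno-miR-199a-5p. These values are given for the reported scaling only, and other scalings were not tested for them. Within slide 2, r in the same order was 0.388, 0.502 and 0.0027 for rno-miR-21-5p. It was 0.763, -0.095 and 0.596 for rno-miR-199a-5p, and 0.960, 0.996 and 0.995 for rno-miR-199a-3p. For rno-miR-214-3p it was 0.768, 0.516 and 0.035.

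A list of 20 other miRNAs linked to cardiac fibrosis was set beside the 6 arms. Of its members, 13 restrain fibroblasts or matrix genes, among them the miR-29 family, which represses collagens, and rno-miR-30c-5p and rno-miR-133a-3p, which repress connective tissue growth factor. The other 7 have been linked to promotion of fibroblast activity. In all, 19 were tested and 0 passed an adjusted p of 0.05. The 19 log2 differences were all at or above 0 with a median of 0.17, beside 0.11 over the 168 brightest and 0.044 over all tested miRNAs. With the same scaling 139 of the 168 brightest and 59.2% of all tested miRNAs stood above 0. With no scaling between arrays 6 of the 19 stood above 0. The same count was found with slide as a fixed term, which compares Control 5 alone with DEX 1 to DEX 3. Quantile scaling, scaling on heart muscle miRNAs, normexp and no background correction each left 15 of 19. The highest was rno-miR-132-3p, a dim miRNA detected on 6 of 10 arrays, with a Control mean of 4.57 ± 0.784, a DEX mean of 7.28 ± 2.77 (SD, n = 5 for both) and a change on the log2 scale of 0.61 ± 0.24 (SE, limma adjusted p 0.905). The lowest was rno-miR-22-3p with a Control mean of 2378 ± 376 and a DEX mean of 2374 ± 335 (SD, n = 5 for both). The restraining members had a median of 0.17 over 13 tested and the promoting members 0.25 over 6 tested, so miRNAs of opposite known roles stood on the same side of 0. The miR-29 family, which opposes miR-21 in its known effect on matrix, gave log2 differences of 0.18, 0.16 and 0.17 for rno-miR-29a-3p, rno-miR-29b-3p and rno-miR-29c-3p.

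Markers of other cells of the ventricle were read on the same scale. The summed normalized signal of 5 heart muscle miRNAs was 32198 to 45996 on Control arrays and 31079 to 44985 on DEX arrays, with a median log2 difference of 0.14, from -0.013 for rno-miR-133b-3p to 0.16 for rno-miR-1-3p. The endothelial arms rno-miR-126a-3p and rno-miR-126a-5p stood at 0.13 and 0.0082, and the smooth muscle miRNAs rno-miR-143-3p and rno-miR-145-5p at 0.15 and 0.060. The 5 blood cell miRNAs ranged from -0.75 for rno-miR-144-3p of red cells to 0.34 for rno-miR-223-3p of myeloid cells, with a summed signal of 665 to 1100 on Control arrays and 517 to 1125 on DEX arrays. None of these 14 miRNAs passed the adjusted threshold. rno-miR-133a-3p and rno-miR-223-3p also stand on the fibrosis list. The endothelial pair summed to 4360 to 5783 on Control arrays and 4370 to 6739 on DEX arrays, the smooth muscle pair to 2433 to 3711 and 2654 to 3857, and their part in the values of the 6 arms was not tested.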

How the data were processed

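Cy5-labelled RNA of 10 left ventricles was measured on a one-colour rat miRNA chip. The labels name the RNeasy kit and the methods the miRNeasy kit for extraction. Per the file headers, the authors' scanner files hold median spot and background intensity on a linear scale, merged from 3 gain settings with no background removed. The deposited series value table holds a processed score per miRNA, which the authors scaled to a median of 25 per array and rounded. Set against the scanner values, 99.8% of 5038 scores equalled, within 0.51, the intensity of the spot less a blank mean (5% of blanks dropped from either tail) times 1 factor per array. Scanner software versions and the miRBase release are not given in the sources used here. The value table had 0 unused columns.

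Here the same blank mean was removed and arrays were brought to a median of 25 over the miRNAs detected on each. A miRNA not detected took the array minimum among detected ones, spots marked as bad gave no value, and values were then put on the log2 scale. A miRNA was detected where the value table held a score. Groups and replicate numbers came from the sample titles and slides from the array names. The number of arrays limits the precision. Differences came from lmFit and eBayes of limma 3.58.1 under R 4.3.3 (two-sided, Benjamini-Hochberg over 503 miRNAs or 134 arm pairs, threshold 0.05). Exact permutation tests used all splits of 5 against 5, where the smallest possible p is 0.00794, and correlations used 100000 resamples. The code was tested on simulated data. Sequences and positions were taken from RefSeq (GRCr8), and figures were drawn with matplotlib 3.10.9.

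The 6 arms, the lists and the tests were chosen with earlier results of these data known, so no adjustment over the arms alone was made. Named miRNAs were the 6 arms, the 3 others most correlated with each tested arm, seed relatives on the chip, and the highest and lowest of the fibrosis list. Marker and miR-29 values were added as context, and rno-miR-3120 was added because it overlaps Mir214. Alternatives covered background, scaling, value source, filters, undetected values, detection limit, model, the methods' t-test and each array left out.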

Additional observations from a re-analysis of the deposited data

Results flagged for a closer look

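For rno-miR-199a-5p, Control 3 (153) stood apart from the other Control arrays (225 to 261). On the log2 scale 0.721 of the range of the group lay between it and the next array, above the critical value of 0.71, and on the linear scale it was 0.666, below it. This was 1 of 10 groups of 5 arrays examined, where chance gives about 1 in 20, or 0.5 here. Probe-free spots were used in no comparison. Their median over blank was 37.7 for DEX 4 and 28.8 for DEX 5, above the highest Control array at 10.2.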

How the results depend on the processing

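Under each of the 26 alternatives 0 miRNAs passed the adjusted threshold (smallest adjusted p from 0.0608 to 0.992), and the 4 tested arms stayed above the threshold in each (lowest adjusted p 0.615). The log2 difference of rno-miR-199a-5p reversed to -0.082 with normexp, -0.040 without scaling and -0.043 with slide as a fixed term, and that of rno-miR-199a-3p to -0.40, -0.032 and -0.23. With slide as a fixed term Control 5 was the only Control array set against DEX arrays of its slide. With each array left out the ranges were 0.21 to 0.52 for rno-miR-21-5p, 0.032 to 0.22 for rno-miR-199a-5p, 0.028 to 0.29 for rno-miR-199a-3p, and -0.14 to 0.015 for rno-miR-214-3p, which turned positive only without DEX 4. The contrast of the miR-199a arms, near 0, reversed to -0.32 with normexp, -0.018 with quantile scaling, -0.19 with slide as a fixed term and -0.0042 with slide as a random block, and ranged from -0.055 to 0.066 with each array left out. Over all precursors the count of arm contrasts was 1 with slide as a fixed term (rno-miR-33, named after its value was seen) and 0 to 1 with each array left out (1 without DEX 3), against 0 as reported.

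The number of pairs among the 4 arms with an adjusted p under 0.05 for r was 3 as reported and 0 without background correction, with normexp, with scaling over the miRNAs detected on all arrays, with quantile scaling, with scaling on heart muscle miRNAs and with the series value table, and 0 to 3 with each array left out. The r of rno-miR-199a-5p with rno-miR-214-3p reversed to -0.023 with scaling over the miRNAs detected on all arrays, -0.27 with quantile scaling, -0.012 with scaling on heart muscle miRNAs and -0.0087 with the series value table. That of rno-miR-199a-3p with rno-miR-214-3p reversed to -0.086, -0.43, -0.23 and -0.082, and that of rno-miR-21-5p with rno-miR-214-3p to -0.34 with quantile scaling and -0.0018 with scaling on heart muscle miRNAs. The causes were not tested. Run on these values, the methods' t-test gave 8 miRNAs at their threshold (3 higher, 5 lower, 0 of the 4 arms) and 0 after Benjamini-Hochberg adjustment.

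Replicate numbers of the groups do not mark shared animals. Deviations of same-numbered arrays from their group means correlated between -0.080 and 0.11, and the replicate block changed no call: 0 miRNAs passed. The log2 differences were 0.37, 0.17, 0.17 and -0.069 for rno-miR-21-5p, rno-miR-199a-5p, rno-miR-199a-3p and rno-miR-214-3p. Each replicate number has an array of either group, so this block could move only their SEs, not the differences. Signal over background limits rno-miR-21-3p and rno-miR-214-5p. The spot of rno-miR-21-3p lay between -1.79 and 1.82 blank SDs from the blank mean. That of rno-miR-214-5p lay between 0.455 and 6.02, highest on Control 1. No fold is given for either.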
